A study of Mus musculus with 3 samples.

Results

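The untreated cells of a compound time course were compared with one another, array against array. MigA9 is a mouse haematopoietic line transformed by Hoxa9, kept in RPMI medium with foetal calf serum and GM-CSF-conditioned medium. It was exposed to 2.5 µM DB818, a compound known here by its code name, for 6, 12 or 24 h, and each time had 1 two-colour Agilent array. The unexposed MigA9 cells were in the Cy3 channel of each array and the DB818-exposed MigA9 cells were in its Cy5 channel, with no swap of dyes. The line carries the Hoxa9 transformation in both channels, and it stands for 1 transformed line, not for primary cells. The sources used here do not give whether the untreated RNA on the 3 arrays came from 1 culture or from 3. The genes described were those whose spots were not controls, were well above background in Cy3 on all 3 arrays and were not marked as outliers there. They came to 11036 of 27389 genes, from 16003 of 41174 probes, and 10976 of them were also measured in Cy5 on all 3 arrays. The choice rested on brightness and not on any difference between arrays.

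There was no repeated array, so no difference below has a replicate error or a p-value, and the sizes are a description of these 3 arrays. A difference between 2 arrays joins culture, harvest, RNA preparation, labelling, hybridisation and slide, and these cannot be told apart. A difference found in Cy3 and in Cy5 alike shares the array, the spot and the hybridisation, but not the dye or the compound. The cells and the RNA of the channels were separate preparations as far as the labels say. A difference of 1 on the log2 scale is 2-fold, and signal levels below are log2 of the background-subtracted intensity after quantile normalisation within a dye. Levels of different probes, and levels of the 2 dyes, are on separate scales.

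When oxygen is short, the alpha subunits of the hypoxia-inducible factors (HIF) escape prolyl hydroxylation, pair with Arnt and raise genes for glucose uptake, glycolysis, lactate export and mitophagy. Myeloid progenitors under GM-CSF also make CC chemokines and begin to express granule and macrophage genes when they leave the progenitor state. All 13 markers of myeloid progenitors looked for were well above background on all 3 arrays, among them Hoxa9, Kit, Mpo, Elane and Csf2rb. Of the defining markers of other cells, none of 6 erythroid and none of 5 dendritic markers was, and 1 marker each was for mast cells (Mcpt8), megakaryocytes (Gp1bb), B cells (Vpreb1), T cells (Lck), NK cells (Nkg7) and for fibroblast and endothelium (Pecam1).

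Ankrd37, Ddit4, Bnip3 and Egln3 are HIF-induced genes that were lower in untreated cells on both later arrays, and their promoters are shown for that reason. Each is the RefSeq window in GRCm38.p6 from 250 bases before to 50 bases after the gene's start, written 5′ to 3′ along the gene. Capitals mark the core letters ACGTG or, on the other strand, CACGT.
Ankrd37, chr8:45999801-46000100, minus strand: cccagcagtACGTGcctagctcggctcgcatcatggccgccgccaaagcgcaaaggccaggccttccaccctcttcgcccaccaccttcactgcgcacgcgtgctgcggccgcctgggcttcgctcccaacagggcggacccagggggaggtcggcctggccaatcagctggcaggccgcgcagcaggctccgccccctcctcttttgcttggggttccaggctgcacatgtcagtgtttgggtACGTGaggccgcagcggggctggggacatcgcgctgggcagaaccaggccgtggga
Ddit4, chr10:59951721-59952020, minus strand: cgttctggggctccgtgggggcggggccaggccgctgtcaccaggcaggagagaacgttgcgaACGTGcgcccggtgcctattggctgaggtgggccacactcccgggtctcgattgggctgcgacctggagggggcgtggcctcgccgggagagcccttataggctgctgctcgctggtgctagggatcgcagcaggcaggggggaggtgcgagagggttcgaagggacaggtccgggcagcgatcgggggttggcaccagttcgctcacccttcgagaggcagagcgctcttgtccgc
Bnip3, chr7:138909457-138909756, minus strand: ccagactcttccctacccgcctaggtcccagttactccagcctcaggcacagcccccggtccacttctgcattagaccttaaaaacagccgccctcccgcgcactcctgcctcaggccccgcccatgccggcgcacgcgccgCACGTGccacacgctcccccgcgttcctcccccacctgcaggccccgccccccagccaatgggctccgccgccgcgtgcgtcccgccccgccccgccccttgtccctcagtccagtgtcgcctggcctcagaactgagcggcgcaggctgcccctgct
Egln3, chr12:54203825-54204124, minus strand: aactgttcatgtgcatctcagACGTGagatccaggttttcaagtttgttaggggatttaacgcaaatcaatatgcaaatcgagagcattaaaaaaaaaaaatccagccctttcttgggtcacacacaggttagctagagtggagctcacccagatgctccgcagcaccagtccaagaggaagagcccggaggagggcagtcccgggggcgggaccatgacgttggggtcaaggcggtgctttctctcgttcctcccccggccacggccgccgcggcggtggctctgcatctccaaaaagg
The core letters lay 241 and 6 bases before the start in Ankrd37, 187 in Ddit4 and 229 in Egln3, while in Bnip3 the matches at 108 and 107 bases overlapped as CACGTG. Both strands were searched. The letters were in 19.6% of 32851 windows and in 26.6% of the 10198 windows of the genes measured here. On a list of HIF-induced genes outside glycolysis 23 of 35 windows had them (65.7%), as did 12 of 26 windows of glycolytic genes (46.2%). Some genes have several windows. The lists name known HIF targets, so these shares describe the lists, and a match is not evidence of binding.

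With the processing used here, the untreated channels were close to one another for most genes. The SD of the log2 difference over 11036 genes was 0.14 for the 12 h array over the 6 h array, 0.14 for 24 h over 12 h, and 0.17 for 24 h over 6 h. The 3 pairs share arrays, so they are not independent of each other. In these pairs 97.1, 97.6 and 94.8% of genes were within 1.25-fold. As a yardstick for spotting and scanning alone, 21 probes were printed as 7 to 10 spots each. Over their 206 spots the SD of the difference between spots of a probe was 0.11, 0.078 and 0.12 in the same order of pairs. The like measure per spot, the SD of the difference over all 16188 spots, was 0.14, 0.16 and 0.19. Over 10976 genes the treated channel was wider, with SDs of 0.19, 0.20 and 0.26. Across these genes the Cy3 and Cy5 differences had a Pearson correlation of 0.67, 0.68 and 0.63. The genes are not independent replicates, and both channels share array, spot and hybridisation.

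With the processing used here, few genes reached 2-fold between untreated channels. Subtracting the negative control level as well (below) put 109, 140 and 170 genes past 2-fold for 12 h over 6 h, 24 h over 12 h and 24 h over 6 h. The counts that follow are without that subtraction. On the 12 h array against the 6 h array 4 genes were higher (0.0362% of those measured) and 5 lower (0.0453%), which made 9 genes (0.0816%). On the 24 h array against the 12 h array 7 were higher (0.0634%) and 3 lower (0.0272%), which made 10 genes (0.0906%). Of these 10, 70.0% were higher, against 50% of 10 when all 6 channels were quantile normalised together. On the 24 h array against the 6 h array 9 were higher (0.0816%) and 6 lower (0.0544%), which made 15 genes (0.136%). These were 20 different genes. In 6 of them the untreated signal was highest on the 6 h array, in 4 on the 12 h array and in 10 on the 24 h array. The genes nearest the threshold were Mrpl16 (2.00-fold), Cabcoco1 (2.03-fold) and Klk1b11 (2.15-fold) inside it, and Med14 (2.00-fold, before rounding just short), Apln (1.99-fold) and Gsta4 (1.99-fold) outside it. At 1.5-fold there were 58 genes for 12 h over 6 h (0.526%), of which 19 were higher (0.172%) and 39 lower (0.353%). There were 27 for 24 h over 12 h (0.245%), of which 18 were higher (0.163%) and 9 lower (0.0816%), and 83 for 24 h over 6 h (0.752%), of which 58 were higher (0.526%) and 25 lower (0.227%).

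With the normalisation used here, most of these genes that were also measured in Cy5 differed the same way in the treated channel. No Cy5 value was available for 2 of 9 genes for 12 h over 6 h. The same held for 5 of 10 for 24 h over 12 h and 5 of 15 for 24 h over 6 h. Of those at least 2-fold apart in Cy3 and measured in Cy5, 5 of 7 were at least 2-fold apart the same way in Cy5 for 12 h over 6 h (71.4%, exact 95% interval 29.0 to 96.3), 4 of 5 for 24 h over 12 h (80.0%, 28.4 to 99.5) and 6 of 10 for 24 h over 6 h (60.0%, 26.2 to 87.8). The intervals cover counting error only. The 4 matched genes for 24 h over 12 h were Atp2a2, Mlycd and Mpp2, each with an uneven spot (below), and Mrpl16, near the left edge. The shares moved with the processing. They were 38.5% for 12 h over 6 h and 46.2% for 24 h over 6 h when all 6 channels were normalised together, and 28.6 and 46.3% in these pairs with Agilent's processed signal. For 24 h over 6 h the share was 42.9% without the outer columns of the array, and in the 3 pairs it was 16.3, 17.5 and 23.5% with the negative control level subtracted. Over all 10976 genes, 0.109, 0.264 and 0.583% were at least 2-fold apart in Cy5 in these pairs. At 1.5-fold, 34 of 54, 17 of 21 and 50 of 74 genes were also at least 1.5-fold apart the same way in Cy5, and 54 of 54, 18 of 21 and 70 of 74 had the same sign. The Cy5 background at 1.5-fold was 1.22, 1.66 and 3.13% of genes. The dyes also differed in the signal left after background subtraction. Spots of 314 negative controls still gave a median of 33.0, 32.9 and 32.9 units in Cy3 after background subtraction on the 6, 12 and 24 h arrays, against 10.7, 10.4 and 10.3 in Cy5. The median gene spot gave 131, 138 and 134 units in Cy3. A signal left in every spot would narrow the folds of dim genes. Its part in the differences of size between the dyes was not tested.

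**Figure D1:**
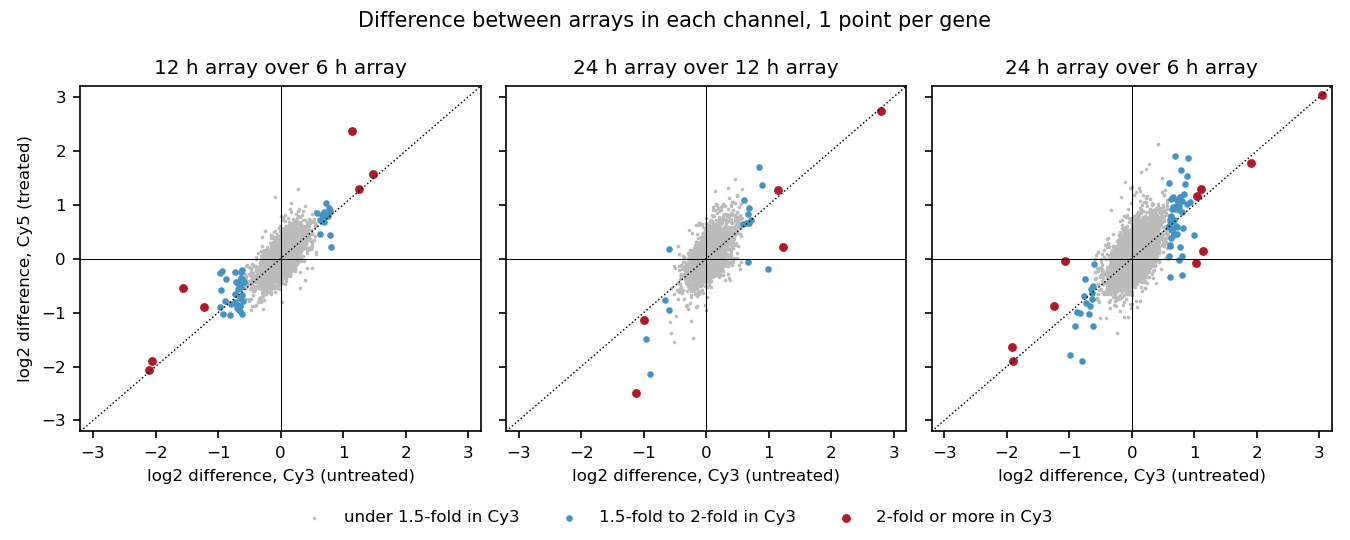
Log2 difference between arrays in the untreated Cy3 channel (x axis) and the treated Cy5 channel (y axis), 1 point per gene measured in both, for each pair of arrays. The dotted line marks equal differences. Red points are genes at least 2-fold apart in Cy3 (7, 5 and 10 from left to right), and most lie near the line, while 1 gene in the middle panel and 3 in the right one lie near 0 on the Cy5 axis.

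Genes induced by HIF were lower in untreated cells on the 12 and 24 h arrays than on the 6 h array. Ankrd37, which encodes an ankyrin repeat protein and is a HIF target, had untreated levels of 8.12, 6.02 and 6.20 on the 6, 12 and 24 h arrays. It was 4.28-fold lower on the 12 h array than on the 6 h array and 3.79-fold lower on the 24 h array. Treated levels were 8.52, 6.47 and 6.88, so with the processing used here its treated cells differed between arrays by about as much. Subtracting the negative control level widened the differences, more in Cy3 than in Cy5. For 12 h over 6 h Ankrd37 then differed by -2.94 in Cy3 and -2.20 in Cy5. For 24 h over 6 h it differed by -2.60 and -1.73. Ddit4, which encodes the mTORC1 inhibitor REDD1, had untreated levels of 10.01, 7.95 and 8.12 and treated levels of 11.26, 9.37 and 9.36. Its untreated level was 4.18-fold lower at 12 h and 3.71-fold lower at 24 h than at 6 h. For both genes the 6 h array alone was high in each channel, and the 12 and 24 h arrays were close.

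Bnip3, which encodes a mitophagy receptor, differed less between arrays in treated than in untreated cells. Its untreated levels were 9.60, 8.05 and 8.53, which put the 12 h array 2.94-fold and the 24 h array 2.10-fold below the 6 h array. Its treated levels were 9.70, 9.16 and 9.65, a difference of -0.54 for 12 h over 6 h and -0.05 for 24 h over 6 h. The treated-over-untreated log2 ratio of Bnip3 was therefore 1.02 higher on the 12 h array and 1.02 higher on the 24 h array than on the 6 h array, and the untreated channel carried the larger part of it. Subtracting the negative control level as well gave Cy3 differences of -1.69 and -1.14 and Cy5 differences of -0.54 and -0.05, so the gap between the channels was no narrower. Egln3, which encodes a HIF prolyl hydroxylase, had untreated levels of 8.28, 7.33 and 7.52 and treated levels of 8.67, 8.10 and 8.28. Slc2a1, which encodes the glucose transporter GLUT1, had 10.48, 9.61 and 9.88 untreated and 11.69, 11.31 and 11.58 treated. Both were highest on the 6 h array and lowest on the 12 h array in each channel, with the wider spread in the untreated one.

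The HIF list as a whole went the same way. Of its 42 genes outside glycolysis 33 were measured, and 29 of the 33 were lower on the 12 h array than on the 6 h array and 4 were higher, where 50.6% of all genes were higher. Their median difference was -0.22, against 0.00 over all genes. For 12 h over 6 h, 7 of the 33 were at least 1.5-fold lower and none was higher (background 0.353% lower and 0.172% higher), namely Ankrd37, Ddit4, Bnip3, Egln3, Slc2a1, Fam162a and Ccng2. For 24 h over 6 h the median was -0.16 and 5 of 33 were at least 1.5-fold lower (background 0.227%). For 24 h over 12 h the median was 0.09, with 26 of 33 higher (47.2% of all genes) and none past 1.5-fold. The treated channel showed medians of -0.11, 0.14 and 0.02 for 12 h over 6 h, 24 h over 12 h and 24 h over 6 h. Kdm3a, a histone H3 lysine 9 demethylase, and P4ha1, a collagen prolyl hydroxylase subunit, had differences of -0.48 and -0.55 for 12 h over 6 h in Cy3.

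Going by list medians in Cy3, glycolytic genes were shifted by slightly less for 12 h over 6 h and by slightly more for 24 h over 6 h. Of 18 listed genes 15 were measured, and 14 of these were lower on the 12 h array than on the 6 h array and 1 higher (50.6% of all genes), with a median of -0.19 in Cy3 and 0.01 in Cy5. Slc16a3, which encodes the lactate exporter MCT4, had untreated levels of 12.17, 11.44 and 11.76, and Pfkl, a phosphofructokinase subunit, had 8.90, 8.26 and 8.32. They were the 2 of 15 list genes at least 1.5-fold lower for 12 h over 6 h (background 0.353%). Hk2, a hexokinase, had 10.24, 9.80 and 9.97. Aldoc, an aldolase, went the other way, with untreated levels of 7.10, 7.23 and 7.59 and treated levels of 7.78, 8.46 and 9.02. On the 24 h array over the 6 h array the list had a median of -0.18 in Cy3 and 0.03 in Cy5, and none of the 15 was past 1.5-fold.

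**Figure D2:**
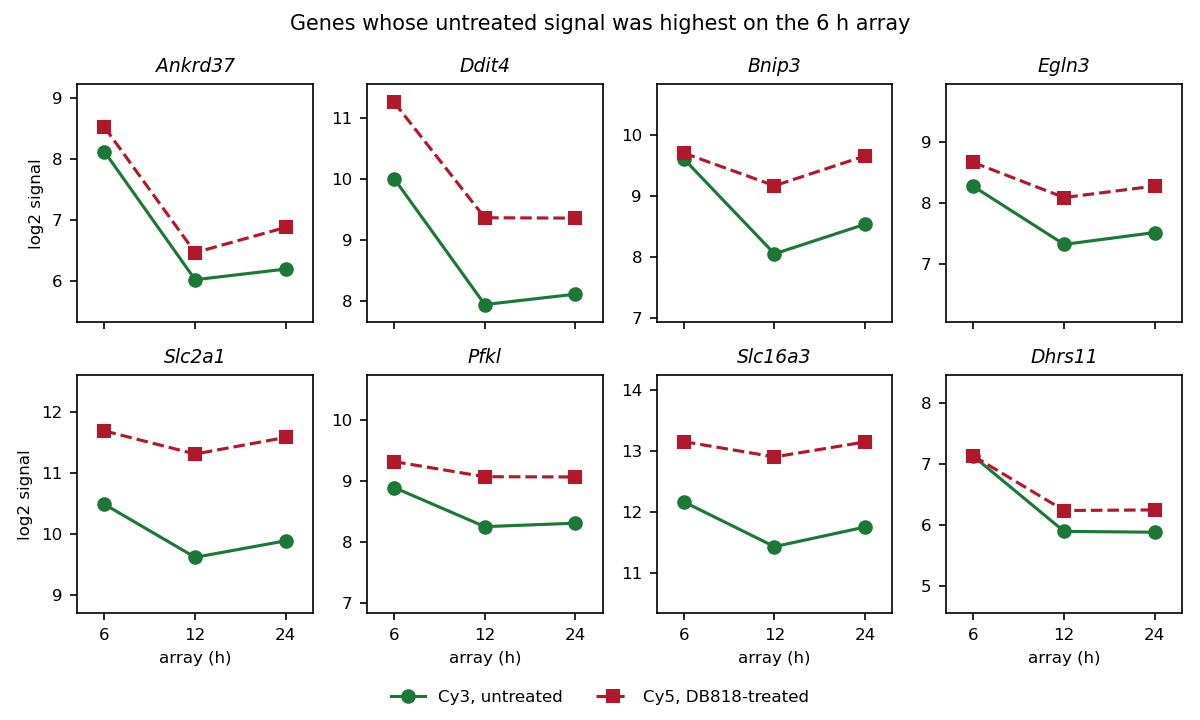
Log2 signal of 8 genes on the 6, 12 and 24 h arrays in the untreated Cy3 channel (green circles) and the treated Cy5 channel (red squares), 1 array per time and no error bars. The panels differ in offset but not in scale, and levels of the 2 dyes are not comparable. Untreated signal was highest on the 6 h array in all 8 genes shown, and in Bnip3 the treated signal on the 24 h array was back at 9.65, against 9.70 on the 6 h array.

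Other genes had the same shape without being on either list. Dhrs11, a short-chain dehydrogenase gene, had untreated levels of 7.13, 5.90 and 5.88 and treated levels of 7.13, 6.24 and 6.25. Neat1, the long noncoding RNA that scaffolds paraspeckles, had 9.87, 8.98 and 9.37 untreated and 10.58, 9.80 and 10.53 treated. Clk1, a kinase of splicing factors, was measured by 2 probes, and these were 0.85 and 0.78 lower in Cy3 on the 12 h array than on the 6 h array on the log2 scale. Selenbp1 and Selenbp2, near-identical genes that 1 probe may not tell apart, had untreated differences of -0.93 and -0.97 for 12 h over 6 h but treated ones of -0.22 and -0.26. As in Bnip3, their treated-over-untreated ratios were thus higher on the 12 h array, by 0.70 and 0.72.

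The opposite order, with the lowest untreated signal on the 6 h array, was found in Ccl3, Ccl4, Ccl2 and Ccl6, which all encode CC chemokines. They were picked by size from a wider list of chemokines, cytokines and NF-κB genes. Ccl3, a chemokine that attracts monocytes, had untreated levels of 6.71, 8.19 and 8.62 and treated levels of 7.89, 9.46 and 9.66. It was 2.78-fold higher on the 12 h array and 3.75-fold higher on the 24 h array than on the 6 h array in untreated cells. Its 1 spot was in the first column at the left edge of the array, where differences were more common (below). Ccl4, a related chemokine whose spot was in column 175 of 215, had untreated levels of 5.64, 6.41 and 6.40 and treated levels of 5.96, 6.90 and 6.87. Ccl2, a ligand of Ccr2, had 5.47, 5.75 and 6.24 untreated and 5.89, 6.41 and 7.04 treated. Ccl6 had 9.49, 9.95 and 10.19 untreated and 10.71, 11.15 and 11.32 treated. In all 4 the 6 h array was the lowest in both channels. Ccl2 and Ccl4 were dim, and the sizes of their differences moved with the background. With the negative control level subtracted, Ccl2 differed by 1.91 in Cy3 for 24 h over 6 h, in place of 0.77. Ccl4 differed by 1.61 for 12 h over 6 h, in place of 0.77.

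The list they come from was shifted little as a whole. Of its 35 genes 19 were measured, and for 24 h over 6 h 13 of the 19 were higher (47.0% of all genes) with a median of 0.06 in Cy3. For 12 h over 6 h 8 of the 19 were higher (50.6% of all genes), with a median of -0.01. Ccl3, Ccl2, Ccl4 and Ccl6 were the 4 genes at least 1.5-fold higher for 24 h over 6 h (background 0.526%). In that pair Il1rn, the interleukin 1 receptor antagonist, was 0.42 higher and Ccl9, a further CC chemokine, 0.43 higher. Tnfaip3, an inhibitor of NF-κB signalling, and Nfkb2, an NF-κB subunit, had differences of -0.26 each.

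The list of mast cell and basophil genes holds Ccl3 and Ccl4 as well, since these cells also make them. Of its 23 genes 6 were measured, and 5 of the 6 were higher on the 12 h array than on the 6 h array, with a median of 0.36 in Cy3 and 0.44 in Cy5. For 24 h over 6 h 5 of 6 were higher too, with a median of 0.33 in Cy3 and 0.63 in Cy5. Ccl3 and Ccl4 were the 2 at least 1.5-fold higher in both pairs (background 0.172% for 12 h over 6 h and 0.526% for 24 h over 6 h). Hdc, histidine decarboxylase, had untreated levels of 6.15, 6.53 and 6.53, and Cyp11a1, a steroidogenic enzyme, had 8.42, 8.77 and 8.70. Of 7 defining mast cell and basophil markers Mcpt8 alone was measured, with untreated levels of 6.92, 6.60 and 6.88, lowest on the 12 h array.

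Klk1b11, a kallikrein 1-related peptidase gene, also had its lowest untreated signal on the 6 h array, with untreated levels of 8.95, 9.69 and 10.06. It was 2.15-fold higher on the 24 h array than on the 6 h array, with a difference of 1.10 in Cy3 and 1.28 in Cy5. Its paralogues were looked at after that and belong to no list. Klk1b26, Klk1b8 and Klk1b4 differed by 0.89, 0.80 and 0.66 in Cy3 and by 1.01, 1.07 and 1.14 in Cy5, while Klk1b27 differed by 0.09 in Cy3 and 0.71 in Cy5. These genes are close paralogues in a cluster, and a probe may pick up more than 1 of them, so they are not separate observations.

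Markers of monocytes and macrophages were higher on the later arrays. Of 50 listed genes 39 were measured, and 35 of the 39 were higher on the 24 h array than on the 6 h array, with a median of 0.20 in Cy3 and 0.11 in Cy5. Over all genes 47.0% were higher and the median was -0.01. Spp1 and Gpnmb were the 2 of 39 at least 1.5-fold higher (background 0.526%). Spp1, which encodes osteopontin, had untreated levels of 8.05, 8.56 and 8.85 and treated levels of 8.87, 8.69 and 8.57. The channels thus ran opposite ways, and its treated-over-untreated ratio was 1.10 lower on the 24 h array than on the 6 h array. Gpnmb, a glycoprotein of macrophages, had 7.90, 8.35 and 8.52 untreated and 8.88, 9.37 and 9.27 treated. Klf4, a transcription factor of monocytes, had 9.38, 9.78 and 9.93 untreated, and Adgre1, which encodes F4/80, had 8.10, 8.33 and 8.60. In each of these 4 genes the untreated levels were in the order of the times.

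Genes of secondary granules and mature neutrophils shifted by a like amount. Of 46 listed genes 32 were measured, and 29 of the 32 were higher on the 24 h array than on the 6 h array (47.0% of all genes), with a median of 0.21 in Cy3 and 0.38 in Cy5. Ngp, neutrophilic granule protein, was the 1 of 32 at least 1.5-fold higher (background 0.526%), with untreated levels of 8.17, 8.37 and 8.84 and treated levels of 9.15, 9.33 and 9.86. Camp, which encodes the cathelicidin peptide, was 0.37 higher on the 12 h array and 0.38 higher on the 24 h array than on the 6 h array in untreated cells, and Ltf, which encodes lactoferrin, had untreated levels of 6.78, 7.08 and 7.10. Itgam, which encodes CD11b, was 0.46 and 0.56 higher by its 2 probes. Genes of the primary granules, made earlier in the lineage, had a median of 0.04 over 20 measured. Mpo, myeloperoxidase, had untreated levels of 12.70, 12.75 and 12.58 and treated levels of 13.83, 13.64 and 12.75. Its untreated cells were level over the arrays, and the lower ratio on the 24 h array (by 0.96 against 6 h) lay in the treated channel.

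Immediate early genes and feedback genes of the MAP kinase path had a median of 0.19 in Cy3 and 0.32 in Cy5 for 24 h over 6 h, with 19 of 27 measured genes higher (47.0% of all genes). Dusp6, a phosphatase of ERK, was the 1 of 27 at least 1.5-fold higher (background 0.526%), with untreated levels of 9.54, 10.09 and 10.20 and treated levels of 10.57, 10.98 and 11.02. Nr4a1, an orphan nuclear receptor, was 0.50 higher in Cy3, and Junb was 0.18 lower.

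**Figure D3:**
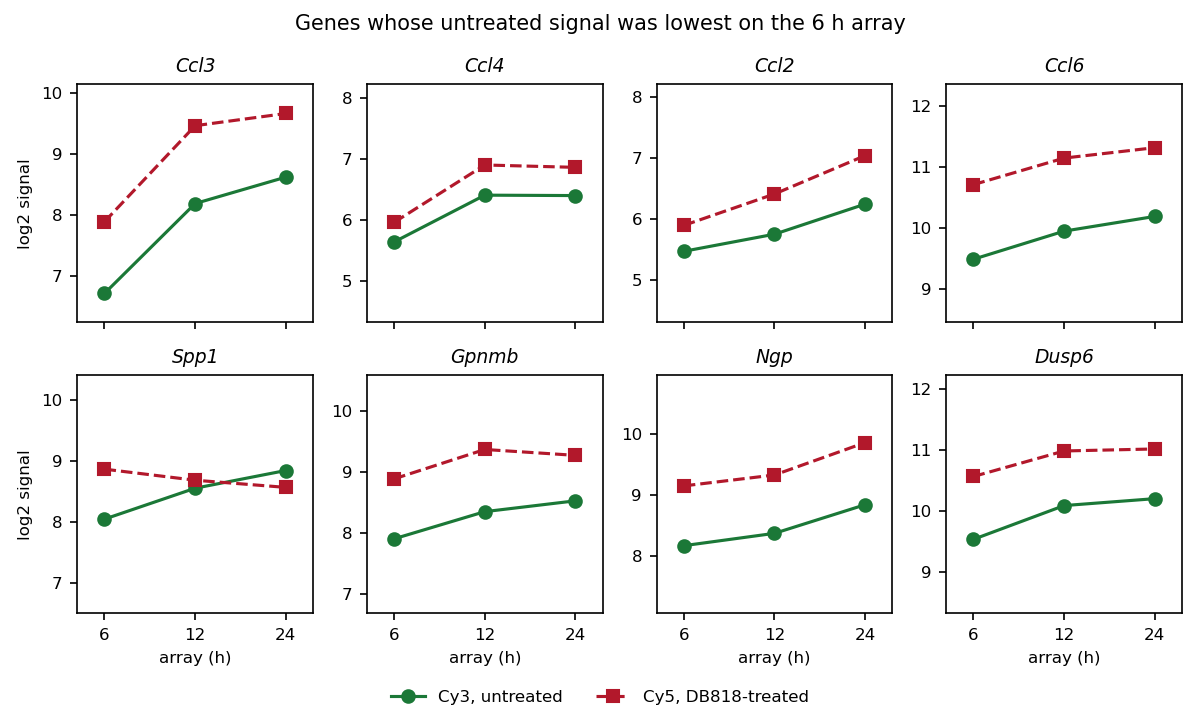
Log2 signal of 8 genes on the 6, 12 and 24 h arrays in the untreated Cy3 channel (green circles) and the treated Cy5 channel (red squares), drawn to 1 scale with separate offsets, 1 array per time and no error bars. Untreated signal was lowest on the 6 h array in all 8. Treated signal followed in 7 of them, while treated Spp1 was highest on the 6 h array at 8.87.

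Ribosome biogenesis, tRNA synthetase, heat shock and ATF4 response genes were mostly lower in Cy3 on the 24 h array, by small amounts. Cytosolic ribosomal protein genes had a Cy3 median of -0.02 for 24 h over 6 h (77 measured). Of 49 measured genes for the nucleolus and ribosome biogenesis, 42 were lower on the 24 h array than on the 6 h array and 7 higher, where 47.0% of all genes were higher, with a median of -0.15 in Cy3 and -0.30 in Cy5. Gar1, a protein of H/ACA ribonucleoproteins, was the 1 of 49 at least 1.5-fold lower (background 0.227%), with untreated levels of 8.35, 8.11 and 7.67 from a spot in column 9, near the left edge. Against the same 47.0%, 2 of 20 tRNA synthetases were higher and 18 lower (median -0.14 in both channels), for example Vars (-0.34) and Farsb (-0.34). Of 17 heat shock genes 2 were higher and 15 lower (median -0.12 in Cy3 and -0.28 in Cy5), with -0.34 for Hspd1, the mitochondrial chaperonin. Of 25 genes of the ATF4 response 4 were higher and 21 lower in Cy3 (median -0.15), while the treated median was 0.00. Trib3, a pseudokinase, had untreated levels of 6.63, 6.12 and 6.07, and Asns, asparagine synthetase, had 11.86, 12.17 and 12.05. The Asns probe was uneven in Cy3 (below) on the 6 h array, where it was lowest.

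The list of histone genes joins replication-dependent histones, whose transcripts follow S phase, with replacement histones, which are made outside it too. Its 30 measured genes had a median of 0.10 for 12 h over 6 h, with 24 of 30 higher (50.6% of all genes), and of -0.14 for 24 h over 12 h, with 7 of 30 higher (47.2% of all genes). H2ac13, a replication-dependent gene, had untreated levels of 10.62, 10.94 and 10.63. H3f3a, which encodes the replacement histone H3.3, had 12.64, 12.61 and 12.98 and was highest on the 24 h array. Histone genes of a class are nearly identical, and probes may share signal. DNA replication genes moved with a median of 0.05 and then -0.04 in the same pairs (48 measured), and none was past 1.5-fold. Of 48 mitotic genes 10 were higher and 38 lower on the 12 h array than on the 6 h array (median -0.04), where 50.6% of all genes were higher. Cenpa and Dlgap5 were the 2 of 48 at least 1.5-fold higher in that pair (background 0.172%). Cenpa, the centromeric histone H3, had untreated levels of 7.51, 8.13 and 8.27 and treated levels of 8.50, 9.21 and 9.47. Dlgap5 had 5.76, 6.57 and 6.13 untreated and 6.14, 6.35 and 6.44 treated, by a probe that was uneven in Cy3 (below) on the 24 h array.

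Other lists had untreated medians nearer 0. Hox genes and their cofactors had a median of 0.00 for 24 h over 6 h (11 measured). Hoxa9 itself had untreated levels of 12.72, 12.80 and 13.05 and treated levels of 14.58, 14.49 and 14.64. Cytosolic ribosomal proteins had a median of -0.02 over 77 genes, and 1 of them, Rps27a, was at least 1.5-fold higher (background 0.526%), with levels of 12.87, 13.66 and 13.80 in untreated cells and 14.48, 15.37 and 15.52 in treated cells. Cholesterol synthesis had 0.04, the p53 response -0.01, and NRF2 and glutathione genes 0.02. Fatty acid synthesis had 0.02, the interferon response 0.07, STAT5 feedback -0.04, ER chaperones -0.09, lysosome and autophagy 0.08, metallothioneins -0.05, nuclear genes of oxidative phosphorylation -0.08 and erythroid and megakaryocyte genes 0.08. Iron and heme genes had 13 of 24 higher, and the lymphoid and mitochondrially encoded lists had 3 and 1 measured genes and no median. Common reference genes had -0.06 over 15 genes. Actb had untreated levels of 8.40, 8.28 and 8.38 and B2m had 9.30, 9.25 and 9.34, whereas Hprt, from a spot in column 2, had 11.54, 11.73 and 11.90 and Polr2a 5.66, 5.79 and 5.13.

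**Figure D4:**
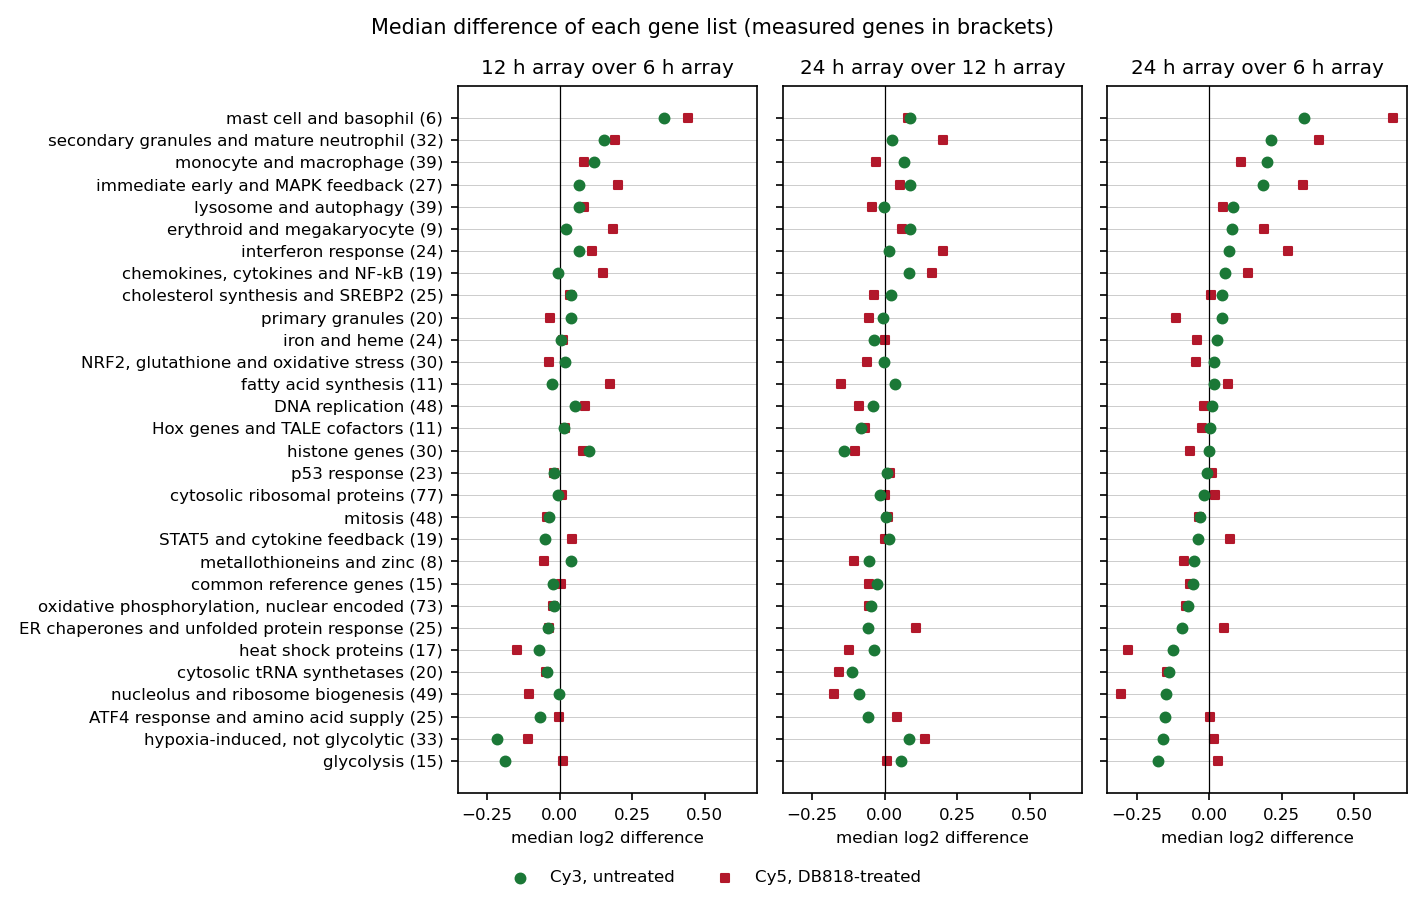
Median log2 difference between arrays for each gene list with at least 5 measured genes (number in brackets), in the untreated Cy3 channel (green circles) and the treated Cy5 channel (red squares), for the 3 pairs of arrays. HIF-induced and glycolytic genes lie lowest for 12 h over 6 h in Cy3 (-0.22 and -0.19), and secondary granule, macrophage and immediate early genes lie at 0.19 to 0.21 for 24 h over 6 h, while the mast cell list at the top rests on 6 genes, Ccl3 and Ccl4 among them.

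Not every spot past 2-fold was evenly lit. A spot was called uneven when the SD of its Cy3 pixels over their mean was above the 99th percentile of its array. Over all 16188 spots, 0.79, 0.69 and 0.82% were uneven on either array of the pair for 12 h over 6 h, 24 h over 12 h and 24 h over 6 h. Among spots at least 2-fold apart, 5 of 15, 16 of 17 and 11 of 22 were. Of the 20 genes past 2-fold, 11 had an uneven spot on an array. All 7 that were not measured in Cy5 were among these 11, Saa1 and Mrgpra2b for example. The other 9 were Ankrd37, Ddit4, Bnip3, Dhrs11, Ccl3, Klk1b11, Mrpl16, Cabcoco1 and an unnamed probe in column 3. Of these 9, 6 were at least 2-fold apart the same way in Cy5. Of the 11 with an uneven spot, 3 were (Atp2a2, Mlycd and Mpp2). Mrpl16, a mitochondrial ribosomal protein gene, had untreated levels of 9.86, 9.95 and 8.95 and treated levels of 11.33, 11.22 and 10.09, from a spot in column 9. Cabcoco1 had 5.40, 5.43 and 6.42 untreated but 4.87, 4.98 and 4.79 treated.

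**Figure D5:**
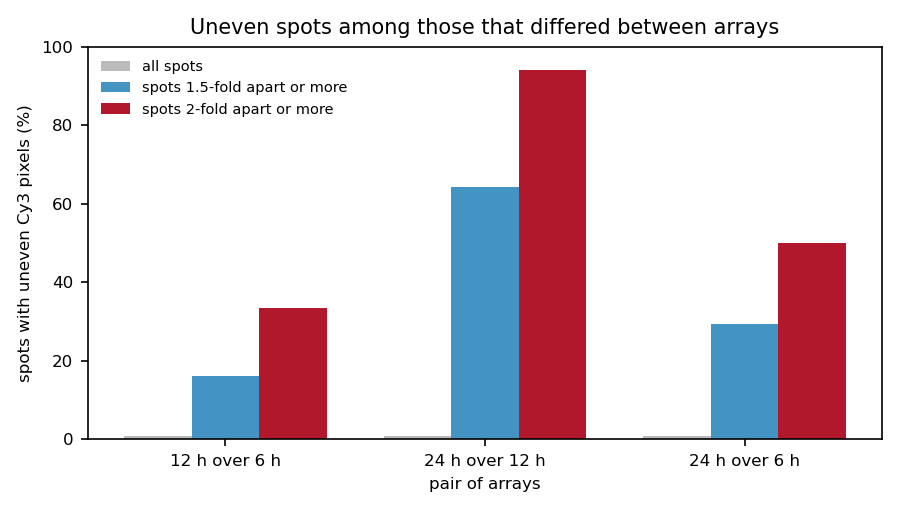
Percentage of spots with uneven Cy3 pixels among all spots (grey), spots at least 1.5-fold apart (blue) and spots at least 2-fold apart (red) in the untreated channel, for each pair of arrays. Uneven spots were under 1% of all spots but 16 of 17 of those at least 2-fold apart between the 24 and 12 h arrays.

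Genes with several probes showed the same. Atp2a2, the calcium pump of the endoplasmic reticulum, had the largest fitted difference of any gene (3.03 for 24 h over 6 h), and it came from 1 of 3 probes. That probe had untreated levels of 5.94, 6.75 and 15.01 and treated levels of 6.90, 7.82 and 15.99, from a spot that was uneven in Cy3 and saturated in Cy5 on the 24 h array. The other 2 probes differed by 0.12 and -0.09 in Cy3. Kat2b, a histone acetyltransferase gene, had 5.74, 5.58 and 7.85 by a probe that was uneven on the 24 h array and 6.22, 6.20 and 6.38 by the other. Its Cy5 value comes from the second probe alone. Both dyes were read from the same spot, so where a spot was uneven a difference in RNA and one in the spot cannot be told apart. Of the genes with several probes that were past 1.5-fold, 1 of 4 was past it by every probe for 12 h over 6 h, 0 of 5 for 24 h over 12 h and 3 of 8 for 24 h over 6 h.

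Position on the slide moved with the differences as well. In the left 10 of 215 columns 2.37, 0.742 and 4.30% of spots were at least 1.5-fold apart in Cy3 for 12 h over 6 h, 24 h over 12 h and 24 h over 6 h. In the middle columns the shares were 0.582, 0.338 and 0.819%, and in the right 10 columns 0.409, 0.136 and 0.409%. Ccl3, Mrpl16, Atp2a2, Phf14, Gar1 and Hprt lay in the left columns. Without the outer 10 columns on each side 7, 8 and 12 genes were at least 2-fold apart, in place of 9, 10 and 15. Ankrd37, Ddit4, Bnip3, Egln3, Slc2a1 and Dhrs11 lay in columns 111, 77, 115, 130, 134 and 107. Genes past 2-fold for 24 h over 6 h were found in each of 5 bins of signal, with 2, 6, 2, 3 and 2 genes from dim to bright.

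A difference in the untreated channel enters the treated-over-untreated ratio of an array whenever the treated channel does not share it. Among 9532 genes with established names, the ratio differed at least 1.5-fold between arrays in 29 genes for 12 h over 6 h, in 43 for 24 h over 12 h and in 133 for 24 h over 6 h. The untreated difference was the larger of the 2 channels in 6, 9 and 15 of these. Bnip3, Selenbp1, Selenbp2 and Spp1 were among them. For Csn1s2a, a casein gene whose ratio was 1.53 higher on the 24 h array than on the 6 h array, untreated levels were 8.32, 8.08 and 8.22, and the difference lay in the treated channel at 9.86, 10.38 and 11.29. Its probe was uneven in Cy3 on the 12 h array.

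Genes not above background on every array give only a lower bound. There were 1129 genes above background in Cy3 on 1 array and 477 on 2, and 14692 on none. A bound of at least 2-fold was reached by 64 genes, 48 of them with uneven pixels on the bright array. The largest bounds were at least 1334-fold for Gkn3 on the 24 h array over the 12 h array, at least 220-fold for Olfr94 on the 12 h array over the 6 h array (205-fold over the 24 h array), and at least 68.9-fold for Hgf on the 12 h array over the 24 h array (64.5-fold over the 6 h array). Hgf had uneven pixels, and the Gkn3 spot was the 1 spot the scanner marked as saturated in Cy3 on the 24 h array. Each rests on 1 spot on 1 array.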

How the data were processed

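RNA of untreated MigA9 cells (Cy3) and of cells given 2.5 µM DB818 (Cy5) was read on 3 two-colour arrays. Per the submitters' processing notes, the authors' extraction software was Agilent Feature Extraction, version 9.1.3.1. The deposited files hold mean and background intensity for each spot and dye, per the file headers. A deposited table of array values was not used here.

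Cy3 mean intensity minus median background was quantile normalised over the 3 arrays (limma 3.58.1, R 4.3.3) for 16188 of 41534 noncontrol spots that were well above background on all 3 arrays, after 14 spots marked as outliers were left out. Cy5 was treated in the same way on the 16100 of these spots also measured in Cy5. Spots were averaged to probes and probes to genes, on the log2 scale. Bounds compare a bright array with the higher of the dim probe's own signal and the lowest signal well above background on that array. Of the measured probes, 11744 were named by accession, 1957 by symbol and 1037 by synonym from RefSeq, and 1265 kept the file's name. The self-test on simulated data recovered the planted changes. The simulated spots had random noise and array offsets but no uneven spots and no edge effect, so it checks the calculation only.

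Groups are the labelled times, each with 1 array, so counts are given by size, at 2-fold and 1.5-fold, with no test. Named genes were the 10 largest differences each way per pair, up to 6 genes of each of 32 lists and some fixed by name. Genes outside this rule (Klk1b26, Klk1b8, Klk1b4, Stab1, the bounds and further list members) were named after their values were seen. The members and lists were chosen with earlier results of these data known. The 13 alternatives changed normalisation, background, signal, filters and probes, and 4 of them were added after the data were seen. The number of arrays limits the precision.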

Additional observations from a re-analysis of the deposited data

Results flagged for a closer look

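In Spp1 and Stab1 the untreated and the treated channels differed in opposite directions between the same arrays. Spp1, osteopontin, was 0.80 higher on the log2 scale on the 24 h array than on the 6 h array in untreated cells and 0.30 lower in treated cells (-0.30). Stab1, a scavenger receptor of macrophages, was 0.61 higher in untreated cells and 0.34 lower in treated cells (-0.34). With 1 array per time the difference between the channels was not tested, and each gene rests on 1 probe.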

How the results depend on the processing

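No paired analysis was possible because each time had 1 array and the labels number no replicates. For 12 h over 6 h, 24 h over 12 h and 24 h over 6 h in turn, 9, 10 and 15 genes were at least 2-fold apart in untreated cells. The counts were 5, 5 and 9 with normexp background correction, 67, 51 and 93 with Agilent's processed signal, 5, 4 and 6 in spots brighter than the median, and 109, 140 and 170 with the negative control level subtracted. With no background filter they were 21 and 26 in the last 2 pairs. Quantile normalisation over all 6 channels gave 26 for 24 h over 6 h. Without uneven spots 1 gene (Mrpl16) was left for 24 h over 12 h, so 0% were higher, and 8 for 24 h over 6 h. At 1.5-fold the counts of 58, 27 and 83 became 377, 278 and 449 with processed signal, 420, 480 and 627 with negative controls subtracted, 114, 99 and 166 over all 6 channels, and 35, 10 and 46 in bright spots. They became 31 and 48 in the first and last pair with normexp, and in the pair 24 h over 12 h 68 with no filter and 10 without uneven spots. The share matched in Cy5 was 71.4, 80.0 and 60.0%. It was 28.6 and 46.3% for 12 h over 6 h and 24 h over 6 h with processed signal, 38.5 and 46.2% over all 6 channels, and 16.3, 17.5 and 23.5% with negative controls subtracted. For 24 h over 12 h it was 100% with normexp, in bright spots, with the brightest probe and without uneven spots. Before asking for a Cy5 value, these settings had 5, 4, 14 and 1 genes at least 2-fold apart in that pair. The cause of the dependence on processing was not tested.

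Of the 88 differences of named genes past 1.5-fold, 88 stayed past it with processed signal, 87 with cyclic loess, 83 with median centring, 71 with normexp and 62 with normexp and no background filter. Processed signal put far more genes past 1.5-fold (above), so staying past it there is a weak check. Without uneven spots 57 of the 63 still measured stayed, and Ddx23 for 12 h over 6 h was reversed, at -0.11, since its uneven probe was then left out. The HIF list's median for 12 h over 6 h lay between -0.33 and -0.11 over all alternatives. The Cy3 signal that negative controls kept is larger relative to a dim spot than to a bright one. Subtracting it raises the number of genes past 2-fold, most of them not matched in Cy5.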
